A study of Mus musculus with 15 samples.

Results

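Brown and beige fat make heat, and 10 genes used to recognise these tissues were followed in the mammary tissue of mice given BDE-47, a polybrominated diphenyl ether flame retardant, or vehicle. The genes were Ucp1, Cidea, Ppargc1a, Prdm16, Elovl3, Cox7a1, Cox8b, Cpt1b, Otop1 and Fabp3, taken by name from the 52526 genes of each mouse. All 10 were found. The animals were female nu/nu nude mice (Crl:NU-Foxn1nu), which are athymic and therefore short of T cells. From 8 weeks of age, 7 mice were given BDE-47 over 16 weeks (0.03 mg/kg/d) by an osmotic mini-pump under the skin, dissolved in PEG300 with 1% DMSO, and 8 mice received PEG300 with 1% DMSO alone. The left 4th mammary tissue was taken at the end of the exposure and gave 1 RNA library per mouse. The study adjusted for a xenograft in the region, but the sample labels do not say which mice carried one, so its part in the values was not tested.

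Brown adipocytes burn fatty acids in dense mitochondria, and uncoupling protein 1 lets protons back across the inner membrane so that the energy is released as heat. Beige adipocytes are cells of the same kind that arise within white fat, including the mammary fat pad of the mouse, under cold or adrenergic stimulation. Several genes that mark this state are also abundant in skeletal muscle and heart, which share the high oxidative capacity: Cox7a1, Cox8b, Cpt1b and Fabp3 are the muscle or heart forms of their families, and Ppargc1a is active in oxidative muscle. Ucp1 is the most specific of the 10.

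Levels are given as log2(CPM), where CPM is the number of reads of a gene per 1 M mapped reads. QuantSeq 3′ FWD sequences only the 3′ end of a transcript, and a CPM value therefore does not scale with transcript length, so the genes can be compared with each other. The depth was 10.06 to 19.58 M mapped reads per mouse. Any gene under 1 CPM, that is under 10.06 to 19.58 reads, is listed at 0. Of 14 genes that every cell uses, 7 were also listed at 0 in 1 or more mice, so a 0 is reported here as listed and not as absence. The members were sparse: 77 of their 150 values (51.3%) were listed at 0.

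Before the comparison, 3 libraries stood apart. BDE-47 mouse 6 held 136125 CPM of 16 skeletal muscle markers, or 13.6% of its reads, where the other 14 mice held 65.1 to 316 CPM. All 7 slow and cardiac muscle markers were above 1 CPM in that mouse and summed to 3652 CPM, against 0 to 11.8 CPM in the others. Vehicle mice 6 and 8 had all 8 B cell markers above 1 CPM, summing to 632 and 697 CPM, while the other 13 mice had at most 1 of the 8 and 0 to 9.87 CPM. The same pair held the least RNA of 12 white adipocyte markers, 608 and 1398 CPM against 5782 to 37220 CPM elsewhere, and 49.0 and 134 CPM of 8 mammary epithelial markers. The epithelial markers summed to 174 CPM in BDE-47 mouse 6 and to 619 to 2701 CPM in the 12 remaining mice, so the label of mammary tissue was borne out least in these 3 libraries. The differences of the members are therefore given with and without them.

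**Figure D1:**
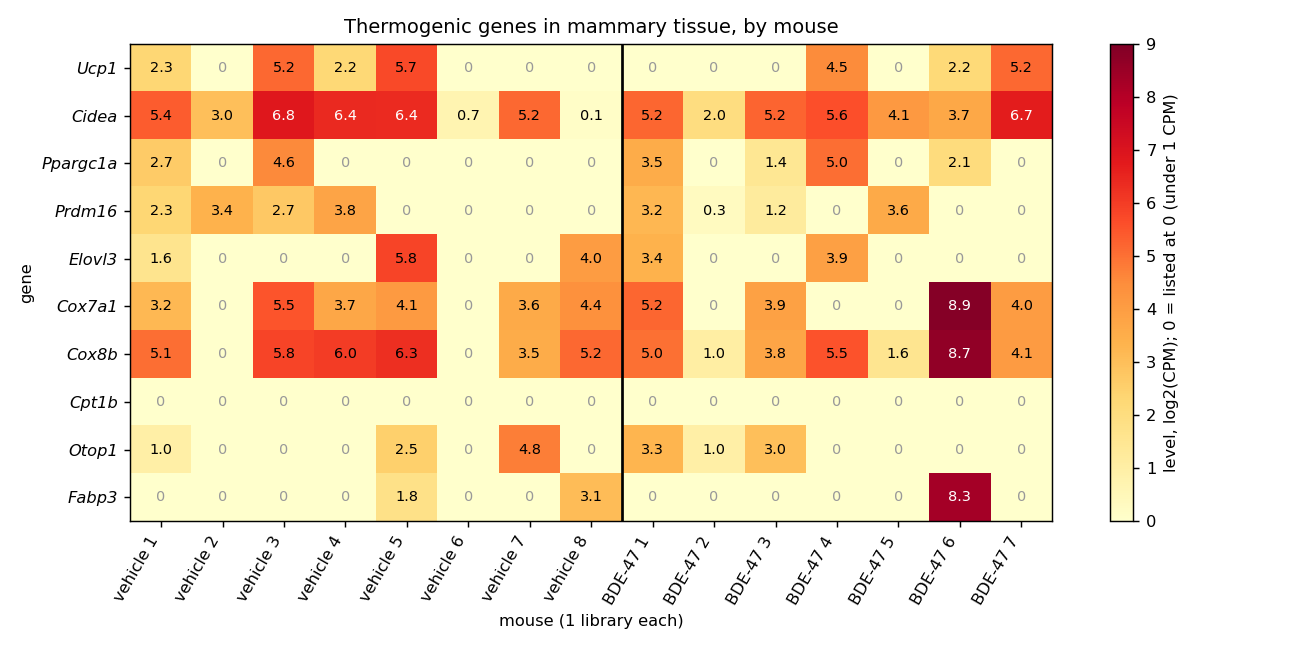
Level of the 10 thermogenic genes (rows) in each mouse (columns, 8 vehicle and 7 BDE-47), as log2(CPM), with 0 for values listed at 0. Cidea is above 0 in all 15 mice and Cpt1b in none, and the darkest cells are Cox7a1, Cox8b and Fabp3 in BDE-47 mouse 6 (8.89, 8.66 and 8.30).

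Uncoupling protein 1 and the lipid droplet protein Cidea are the classical products of the brown adipocyte. Ucp1 (GRCm38.p6, chr8:83290348-83298456) was above 1 CPM in 7 of 15 mice. In 4 vehicle mice its level was 2.24, 2.29, 5.15 and 5.72, and it was listed at 0 in the other 4. In 3 BDE-47 mice it was 2.20, 4.53 and 5.16, and it was listed at 0 in the other 4. Vehicle mice 3 and 5 and BDE-47 mice 4 and 7 together held 91.2% of all Ucp1 CPM listed, so the transcript was concentrated in a few animals of each group and the groups overlapped throughout their range. The highest value, in vehicle mouse 5, was 52.8 CPM or 820 reads. The difference of the mean log2(CPM), BDE-47 minus vehicle, was -0.23 with a standard error of 1.08 in limma (95% interval -2.40 to 1.95, adjusted p = 0.994), and the exact permutation test, two-sided, gave p = 0.817. Without the 3 libraries that stood apart the difference was -0.95 (exact permutation p = 0.567).

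Cidea (chr18:67343564-67367794) coats lipid droplets, promotes their fusion and is also made by the secretory mammary epithelium. It was the only member above 1 CPM in every mouse. Its level ran from 0.12 through a median of 5.25 to 6.85 in the vehicle mice and from 2.00 through a median of 5.21 to 6.70 in the BDE-47 mice. The lowest levels were those of vehicle mice 6 and 8, at 0.69 and 0.12, the same libraries that were poor in adipocyte markers. All the BDE-47 values lay within the vehicle range. The mean level was 4.25 ± 2.65 (SD, n = 8) with vehicle and 4.65 ± 1.53 (SD, n = 7) with BDE-47, a difference of 0.40 with a standard error of 0.91 in limma (95% interval -1.43 to 2.24, adjusted p = 0.994). The exact permutation p was 0.725.

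The sign of the Cidea difference rested on vehicle mice 6 and 8. Without these and BDE-47 mouse 6, the mean level was 5.53 ± 1.39 (SD, n = 6) with vehicle and 4.81 ± 1.61 (SD, n = 6) with BDE-47, a difference of -0.71 (exact permutation p = 0.442). The contribution of adipocyte content to this value was not tested beyond a fit that carried the adipocyte marker score as a covariate, in which the difference was -0.12. In whole tissue, fewer adipocytes and less Cidea RNA per adipocyte cannot be told apart. Per 1000 CPM of the white adipocyte markers, Cidea amounted to between 0.254 CPM in BDE-47 mouse 2 and 6.22 CPM in BDE-47 mouse 7, with a median of 2.07 CPM. Vehicle mice 6 and 8 were inside that range, at 2.65 and 0.777 CPM.

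The mice with the highest Ucp1 also had high Cidea, but not all mice with high Cidea had Ucp1. The 4 mice with the most Ucp1 were 4 of the 5 mice with the most Cidea, and the remaining one of these, vehicle mouse 4, had a Ucp1 level of 2.24. BDE-47 mice 1 and 3 and vehicle mouse 7, with Cidea at 5.20, 5.22 and 5.15, were listed at 0 for Ucp1, whereas BDE-47 mouse 6, with Cidea at 3.67, had Ucp1 at 2.20. Per 1000 CPM of adipocyte markers, Ucp1 reached 2.13 CPM in BDE-47 mouse 7 and 1.77 CPM in vehicle mouse 5. Cox8b was above 1 CPM in all 7 mice with Ucp1 and Cox7a1 in 6 of the 7. Prdm16 was above 1 CPM in 3 of the 7 and Otop1 in 2. Among the mice listed at 0 for Ucp1, Cox8b was above 1 CPM in 6, Cox7a1 in 4, Prdm16 in 5 and Otop1 in 4. The co-occurrence of Ucp1 with Cidea and with these genes was noticed in the values and was not tested.

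**Figure D2:**
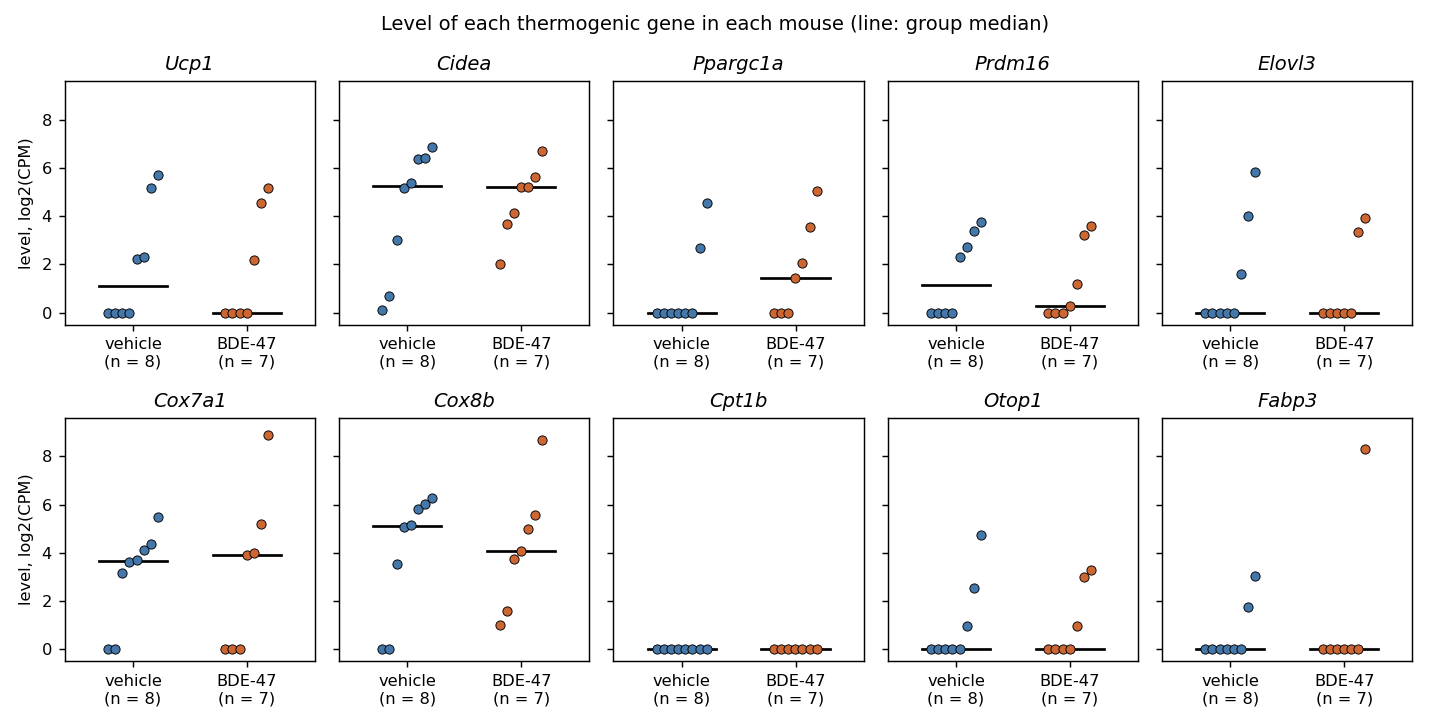
Level of each gene in every mouse, as log2(CPM), in 8 vehicle mice (blue) and 7 BDE-47 mice (orange), with a line at the group median. The ranges overlap for every gene, and Fabp3 is above 0 in 1 BDE-47 mouse at 8.30.

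Ppargc1a and Prdm16 encode regulators of the thermogenic programme. PGC-1α, the product of Ppargc1a (chr5:51454249-52115853), is a coactivator of mitochondrial biogenesis that is induced by cold and by exercise. Its level was 2.67 and 4.56 in 2 vehicle mice and 1.45, 2.07, 3.53 and 5.05 in 4 BDE-47 mice, with the remaining 6 and 3 listed at 0. More BDE-47 mice than vehicle mice were thus above 1 CPM, but the highest values of the groups lay close together, in BDE-47 mouse 4 and vehicle mouse 3. The difference of means was 0.82 (exact permutation p = 0.400), the largest of the 10 members in size, and without the 3 libraries that stood apart it was 0.47 (p = 0.697 in the exact test).

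Prdm16 (chr4:154316122-154637360) encodes a zinc finger protein that holds precursor cells to the brown fat fate and away from muscle. Its level was 2.29, 2.72, 3.37 and 3.77 in 4 vehicle mice and 0.29, 1.20, 3.21 and 3.59 in 4 BDE-47 mice. It was listed at 0 in the other 4 vehicle and 3 BDE-47 mice, among them all 3 libraries that stood apart. The groups overlapped. The difference of means was -0.34 with a standard error of 0.85 in limma (95% interval -2.06 to 1.39, adjusted p = 0.994), and the exact permutation p was 0.680. It was -0.64 without the 3 libraries (exact permutation p = 0.506). Ucp1 and Prdm16 did not always occur together. BDE-47 mouse 7 and vehicle mouse 5, which had the highest Ucp1 of their groups, were listed at 0 for Prdm16.

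Elovl3 and Otop1 are further genes of the cold-exposed fat cell. Elovl3 (chr19:46131897-46135694), which lengthens very long chain fatty acids, was at 1.61, 4.02 and 5.81 in 3 vehicle mice and at 3.36 and 3.92 in 2 BDE-47 mice. Otop1 (chr5:38277404-38304217), a proton channel also known from sour taste cells and the inner ear, was at 0.96, 2.53 and 4.75 in 3 vehicle mice and at 0.98, 2.99 and 3.28 in 3 BDE-47 mice. All other mice were listed at 0 for these genes, and the groups overlapped for each. The differences of means were -0.39 for Elovl3 (exact permutation p = 0.667) and 0.01 for Otop1 (exact permutation p = 0.980). They were -0.02 (exact permutation p = 1) and -0.16 (exact permutation p = 0.903) without the 3 libraries.

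Cox7a1 (chr7:30184171-30186030) and Cox8b (chr7:140898942-140900446) are subunits of cytochrome c oxidase, the last complex of the respiratory chain, in the forms that are used by heart, muscle and brown fat. Fabp3 (chr4:130308738-130315463) is the heart form of the fatty acid binding proteins. In these data the 3 genes shared their highest mouse, BDE-47 mouse 6. Their sequences just upstream of the start of transcription, with that of Ucp1, are shown because these 4 genes carry the 2 patterns described here, high levels in the muscle-rich library and high levels in a few mice of each group. RefSeq promoter entries of GRCm38.p6 were matched for 7 of the 10 members, and the 250 bases before the start are printed 5′ to 3′ on the strand of the gene: chr8:83290098-83290347 (plus) for Ucp1, chr7:30183921-30184170 (plus) for Cox7a1, chr7:140900447-140900696 (minus) for Cox8b and chr4:130308488-130308737 (plus) for Fabp3. Cidea, Elovl3 and Cpt1b had no entry. Capitals mark the matches to the 7 motifs named after the sequences.
Ucp1: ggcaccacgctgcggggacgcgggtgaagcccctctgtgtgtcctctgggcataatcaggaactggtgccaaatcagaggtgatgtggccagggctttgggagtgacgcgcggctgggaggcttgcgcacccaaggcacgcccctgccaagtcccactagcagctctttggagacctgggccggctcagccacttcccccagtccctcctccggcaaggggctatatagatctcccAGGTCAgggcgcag
Cox7a1: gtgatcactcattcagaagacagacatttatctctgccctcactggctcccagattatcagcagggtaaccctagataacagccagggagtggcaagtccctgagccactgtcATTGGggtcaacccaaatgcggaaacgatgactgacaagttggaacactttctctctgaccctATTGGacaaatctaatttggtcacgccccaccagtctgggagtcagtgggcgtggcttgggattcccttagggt
Cox8b: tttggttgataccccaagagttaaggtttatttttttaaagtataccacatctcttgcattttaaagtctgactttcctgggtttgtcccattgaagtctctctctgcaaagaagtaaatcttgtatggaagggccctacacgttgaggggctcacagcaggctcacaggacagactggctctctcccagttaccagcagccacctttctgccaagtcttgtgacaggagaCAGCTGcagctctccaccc
Fabp3: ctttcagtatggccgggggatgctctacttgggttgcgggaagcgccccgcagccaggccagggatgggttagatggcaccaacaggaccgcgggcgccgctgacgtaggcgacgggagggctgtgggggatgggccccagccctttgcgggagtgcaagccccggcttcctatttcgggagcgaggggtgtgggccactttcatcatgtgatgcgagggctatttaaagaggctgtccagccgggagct

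Of the 7 motifs searched, each on both strands, AGGTCA is the nuclear receptor element, and TCAAGGTCA, which contains it, is the element of the estrogen-related receptors. TGACGTCA is the cAMP response element, and CAGCTG is an E-box that MyoD can bind. TATAAA stands for the TATA box of core promoters. The letters CCAAT name an upstream element of many promoters, and the GC box was searched as GGGCGG. Apart from the receptor elements, the motifs do not contain each other. Ucp1 held AGGTCA once, 14 to 9 bases before the start, as did 14% of 32851 RefSeq windows of the same length. Cox8b held CAGCTG once, 19 to 14 bases before the start, a motif of 13% of the windows. Cox7a1 held CCAAT at 2 places on the opposite strand, read as ATTGG in the sequence, a motif of 33.8% of the windows. Fabp3 held none of the 7. The estrogen-related receptor and cAMP motifs were in none of the 7 member windows and in 0.387% and 1.55% of all windows, and TATAAA was in none of the 7 and in 12.4% of all. GGGCGG occurred in Prdm16 and Otop1 and in 32.7% of all windows. The matches describe these letters only.

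Cox8b had the highest mean log2(CPM) of the members after Cidea and was above 1 CPM in 13 mice. Its level was 0, 0, 3.54, 5.06, 5.15, 5.83, 6.01 and 6.26 in the vehicle mice and 1.02, 1.58, 3.76, 4.06, 5.00, 5.55 and 8.66 in the BDE-47 mice. The groups overlapped, except that BDE-47 mouse 6 was above all others at 403 CPM. The difference of means was 0.25 with a standard error of 1.03 in limma (95% interval -1.83 to 2.34, adjusted p = 0.994), and the exact permutation p was 0.858.

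Cox7a1 was above 1 CPM in 10 mice, all of which also had Cox8b. Its level was 0, 0, 3.18, 3.60, 3.72, 4.11, 4.38 and 5.49 in the vehicle mice and 0, 0, 0, 3.89, 4.01, 5.19 and 8.89 in the BDE-47 mice, of which the highest was again mouse 6, at 473 CPM. That library held 87.5% of the Cox7a1 CPM, 77.9% of the Cox8b CPM and 100% of the Fabp3 CPM listed in the BDE-47 group. The difference of the mean Cox7a1 level was 0.08 with a standard error of 1.20 in limma (95% interval -2.35 to 2.51, adjusted p = 1.0; exact permutation p = 0.947).

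Fabp3 was listed at 0 in 6 vehicle and 6 BDE-47 mice. It reached 1.77 in vehicle mouse 5, 3.06 in vehicle mouse 8 and 8.30 in BDE-47 mouse 6, where it amounted to 315 CPM or 6170 reads. The difference of means was 0.58 (exact permutation p = 0.877) and rested on that 1 library: without BDE-47 mouse 6 it was -0.60.

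**Figure D3:**
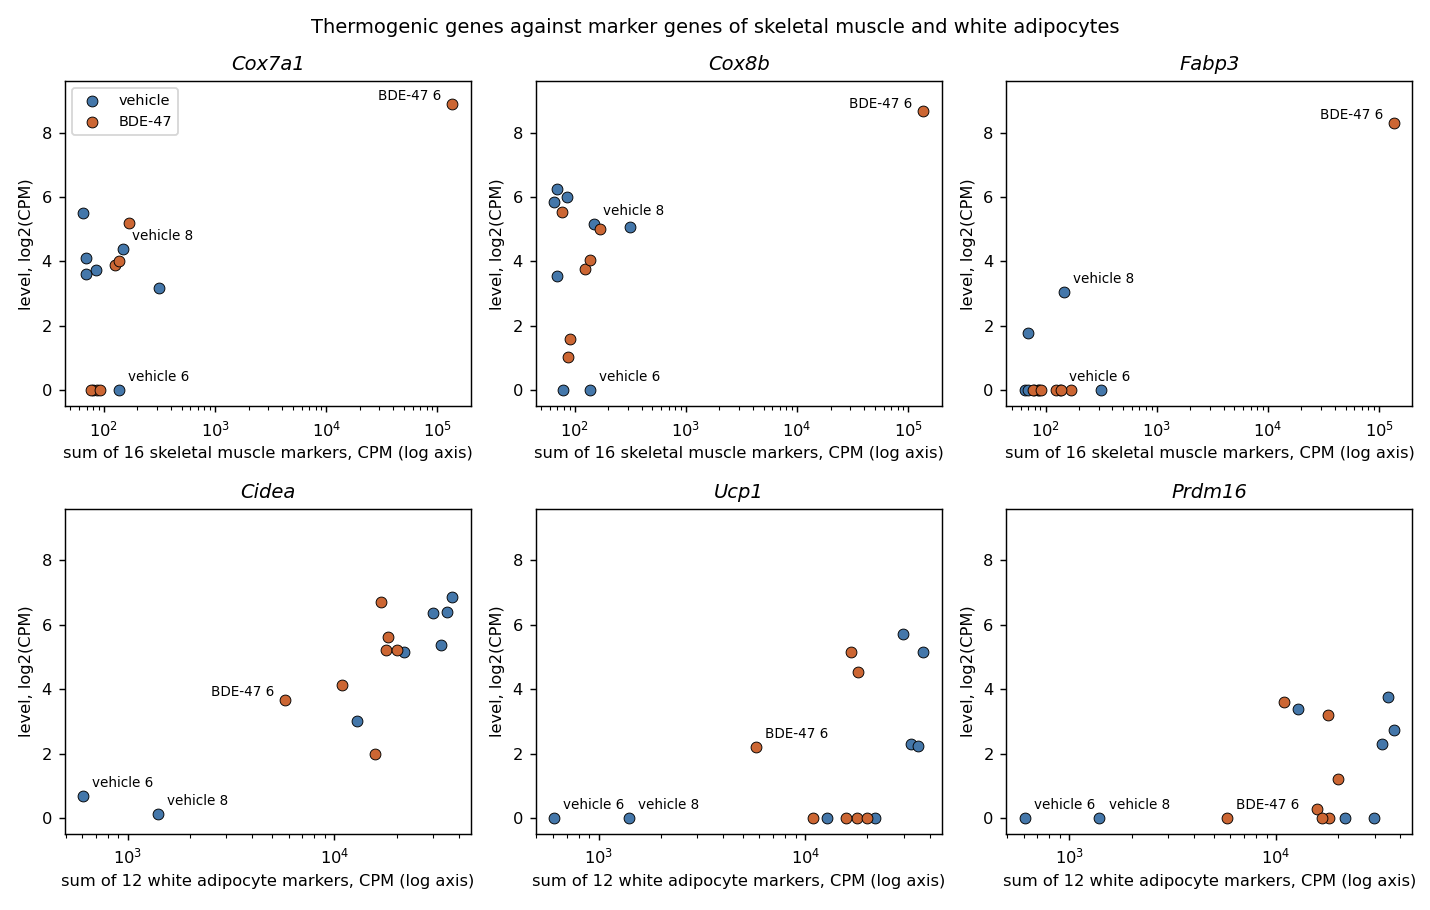
Level of 3 genes shared with muscle against the summed CPM of 16 skeletal muscle markers (upper row) and of Cidea, Ucp1 and Prdm16 against the summed CPM of 12 white adipocyte markers (lower row), 1 point per mouse, on log horizontal axes. BDE-47 mouse 6 stands alone at 136125 CPM of muscle markers, and vehicle mice 6 and 8 have the lowest adipocyte sums, 608 and 1398 CPM.

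Relative to the muscle markers, Cox8b was higher in 12 of the other 14 mice than in BDE-47 mouse 6, and Cox7a1 in 9 of them. Per 1000 CPM of the 16 markers, BDE-47 mouse 6 had 2.96 CPM of Cox8b and 3.48 CPM of Cox7a1. The other 14 mice had 0 to 1102 CPM of Cox8b, with a median of 144 CPM, and 0 to 691 CPM of Cox7a1, with a median of 118 CPM. Their ratios divide by a small sum of muscle markers, 0.0478 to 0.232% of that in BDE-47 mouse 6. The source of these small sums was not tested, so the ratios are not levels per amount of muscle. The mice with the most Cox8b after BDE-47 mouse 6 were vehicle mice 5, 4 and 3, whose muscle markers summed to 69.7, 85.0 and 65.1 CPM, in the lower part of the range. The same 3 mice had the highest Cidea levels of the vehicle group, at 6.37, 6.40 and 6.85. The part of muscle RNA in the levels of these genes was not tested beyond these ratios and a fit with the muscle marker score as a covariate, in which the differences were -0.43 for Cox8b and -0.83 for Cox7a1. Without the 3 libraries that stood apart, the difference of means was -0.95 for Cox8b (exact permutation p = 0.446), -1.17 for Cox7a1 (exact permutation p = 0.407) and -0.29 for Fabp3 (exact permutation p = 1).

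Other members did not share the maximum in BDE-47 mouse 6. Ucp1 was at 2.20 there and ranked 7 of the 15 mice from the highest, Ppargc1a at 2.07 ranked 5, and Cidea at 3.67 ranked 11. Prdm16, Elovl3, Otop1 and Cpt1b were listed at 0.

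Cpt1b (chr15:89416405-89425862), the muscle and brown fat form of the enzyme that admits fatty acids to mitochondria, was listed at 0 in all 15 mice. This included BDE-47 mouse 6, in which 1 CPM stands for 19.58 reads. In RefSeq the whole of Cpt1b, 9458 bases, lies inside the read-through gene Gm44502 on the same strand, and how reads in overlapping genes were assigned is not given in the sources used here. Other members also overlap annotated genes. Elovl3 shares 414 bases with Pitx3 and Fabp3 shares 81 bases with Zcchc17, in each case on opposite strands, Cidea shares 540 bases with the non-coding B430212C06Rik, and 4 RNA genes lie within the span of Prdm16. Whether the counting used strand is not stated.

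Across the set, BDE-47 and vehicle were not told apart. Of the 5 members that passed the limma filter of at least 1 CPM in at least 7 mice (Ucp1, Cidea, Prdm16, Cox7a1 and Cox8b), 0 had an adjusted p under 0.05, as had 0% of the 9511 genes tested, and 0 had an unadjusted p under 0.05, against 4.66% of all genes tested. The other 5 members had the exact permutation test alone. Over the 9 members with a value, exact p ranged from 0.400 to 0.980, where the smallest p these 6435 splits of the mice allow is 0.000155. None differed by 2-fold or more between the group means of log2(CPM). Of 16314 genes above 1 CPM in at least 1 mouse, 20.5% did, 9.97% upward and 10.5% downward. The mean was higher with BDE-47 for 6 members and lower for 3, and 49.3% of the 16314 genes were higher. By mean CPM, 4 members were higher and 5 lower, and 4 were past 2-fold, Cox7a1, Cox8b and Fabp3 upward and Elovl3 downward. The median difference was 0.08 over the members and -0.015 over those genes. Without the 3 libraries that stood apart, 1 member was higher (Ppargc1a) and 8 were lower, 1 was past 2-fold (Cox7a1), and the exact p values were at least 0.407. Of the 15408 genes above 1 CPM in at least 1 of these 12 mice, 49% were lower and 22.8% were past 2-fold, and their median difference was 0.018. In the same 12 mice, 11 of the 12 white adipocyte markers were lower with BDE-47, with a median difference of -0.56 against -0.64 over the 9 members, and the part of adipocyte content in the members' direction was not tested beyond the covariate fit. The 95% intervals of the 5 members in limma reached down to -2.40 and up to 2.51 on the log2 scale. A change of 2-fold in either direction was therefore not excluded for these members with this number of mice.

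**Figure D4:**
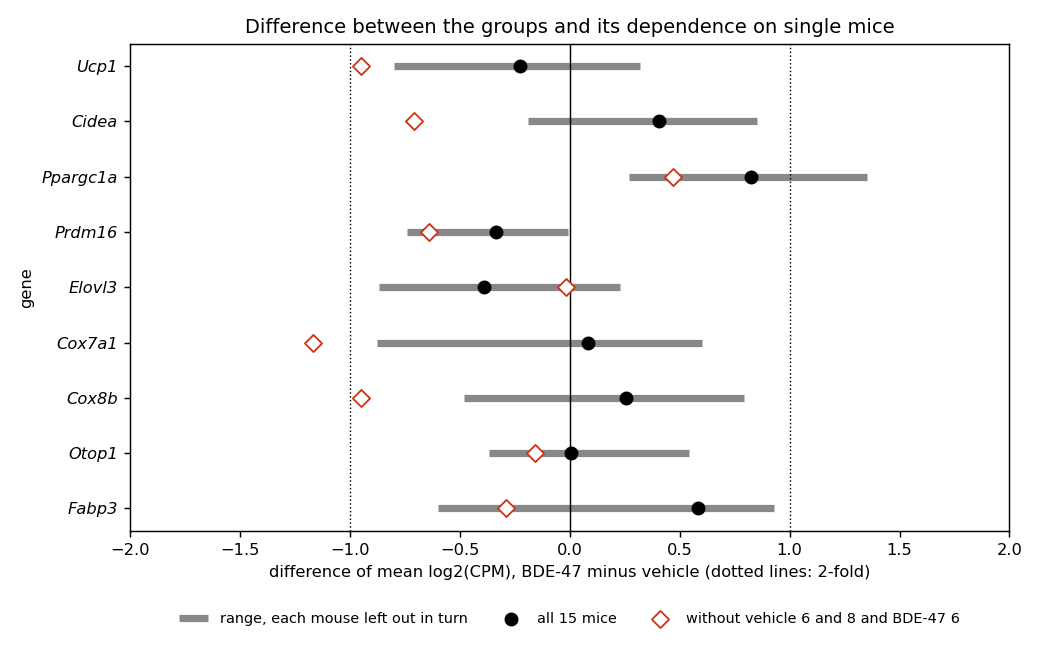
Difference of the mean log2(CPM), BDE-47 minus vehicle, for the 9 members with a value: all 15 mice (black points), the range when each mouse is left out in turn (grey bars) and the value without vehicle mice 6 and 8 and BDE-47 mouse 6 (open diamonds). All black points lie between -0.39 and 0.82, inside the dotted lines at 2-fold, and 8 of the 9 diamonds lie below 0, as did 49% of all genes in those 12 mice.

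Of the members, 7 were set beside a more widely used gene of the same family. Cox8a, the general form of the subunit, was above Cox8b in 14 of 15 mice, and Cox8b made up 0 to 16.2% of the pair in them, with a median of 5.64%. In BDE-47 mouse 6 it made up 84.8%. In the same way Cox7a1 made up 0 to 22.8% of its pair with Cox7a2 in 14 mice, with a median of 7.47%, and 64.1% in BDE-47 mouse 6. The difference between the groups was -0.24 with a standard error of 0.37 for Cox8a (adjusted p = 0.994 in limma) and 0.40 with a standard error of 0.38 for Cox7a2 (adjusted p = 0.982 in limma).

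**Figure D5:**
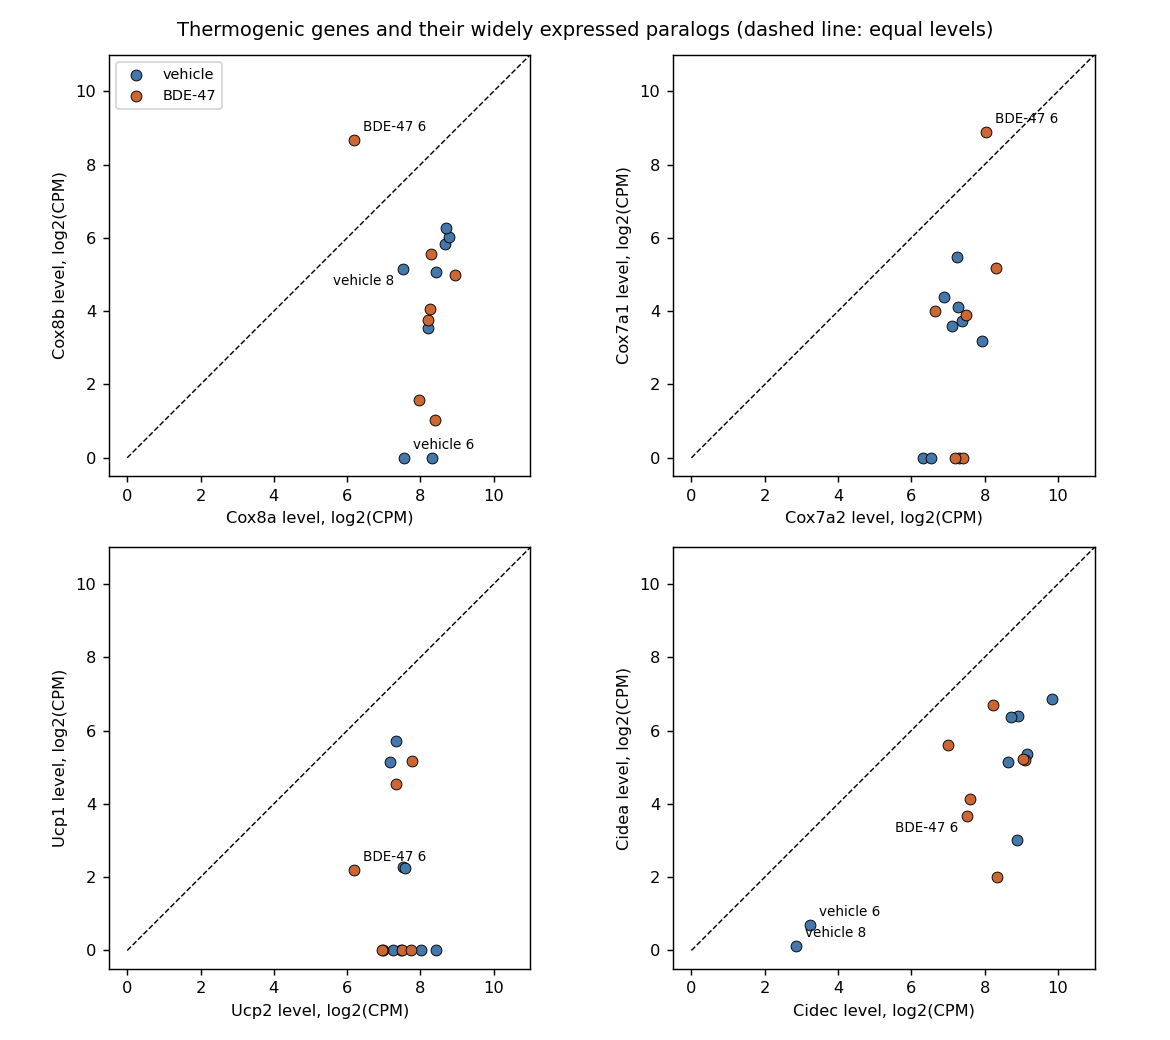
Level of Cox8b, Cox7a1, Ucp1 and Cidea (vertical axes) against Cox8a, Cox7a2, Ucp2 and Cidec (horizontal axes), as log2(CPM), 1 point per mouse, with a dashed line at equal levels. BDE-47 mouse 6 is the only point above the line, for Cox8b and Cox7a1, and vehicle mice 6 and 8 have the lowest levels of both Cidec and Cidea.

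The uncoupling protein with the highest level was Ucp2, which is common in immune cells and is not a heat-producing protein of brown fat. It was above Ucp1 in all 15 mice, at 7.59 ± 0.42 (SD, n = 8) with vehicle and 7.21 ± 0.55 (SD, n = 7) with BDE-47 (difference -0.38, exact permutation p = 0.165). Its highest levels were 8.42 and 8.01 in vehicle mice 8 and 6, and its lowest was 6.20 in BDE-47 mouse 6. In the other 12 mice Ucp2 lay between 6.95 and 7.76. Ucp1 made up at most 24.8% of the pair. Cidec, the lipid droplet protein of white adipocytes, was above Cidea in all 15 mice, and Cidea made up 1.23 to 27.7% of that pair in the 14 mice without BDE-47 mouse 6, where it was 6.51%. Elovl6, the elongase of fatty acid synthesis, was above Elovl3 in all 15 mice, and Elovl3 made up at most 17.5% of that pair. Fabp4, the adipocyte form, was above Fabp3 in all 15 mice, and Fabp3 was 14.8% of their sum in BDE-47 mouse 6 and at most 1.15% elsewhere.

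Cpt1a, the form of liver and many other tissues, was above 1 CPM in all 15 mice, in which Cpt1b was listed at 0. Its level was 5.88 ± 0.69 (SD, n = 8) with vehicle and 4.21 ± 2.42 (SD, n = 7) with BDE-47. The difference of -1.67 had a standard error of 0.74 in limma with an unadjusted p of 0.0292, but its adjusted p was 0.982 and its exact permutation p was 0.0659, so it did not pass. The lowest levels were 0.68 in BDE-47 mouse 4 and 0.71 in BDE-47 mouse 6, against 5.29 to 6.12 in the other BDE-47 mice. The difference was -1.10 without the 3 libraries that stood apart (exact permutation p = 0.184). Elovl5, an elongase of polyunsaturated fatty acids, differed by -1.10 (standard error 0.56, adjusted p = 0.982 in limma; exact permutation p = 0.0553), and by -0.59 without the 3 libraries (exact permutation p = 0.247).

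The wider thermogenic pathway was described with 51 other genes in 5 lists, of which 47 were above 1 CPM in at least 1 mouse and 33 passed the limma filter. None passed at an adjusted p of 0.05, the lowest being 0.982, and 2 of the 33 had an unadjusted p under 0.05, against 4.66% of all genes tested. The mean was higher with BDE-47 for 29 of the 47 and lower for 18, against 49.3% higher over all genes above 1 CPM in at least 1 mouse. More than 2-fold differences were seen in 8 genes upward and 8 downward, 34.0% of the 47, against 20.5% of all genes above 1 CPM in at least 1 mouse. The median difference of the 47 genes was 0.17. Without the 3 libraries that stood apart, 21 of 46 were higher and 25 lower, and the median difference was -0.08. Past 2-fold were then 3 of the 46 upward and 5 downward. Of the 15408 genes above 1 CPM in at least 1 of these 12 mice, 22.8% were past 2-fold and 49% were lower.

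Of the signals that switch on thermogenesis, 7 of 9 measured genes were higher and 2 lower, with none past an unadjusted p of 0.05. Over all genes above 1 CPM in at least 1 mouse, 49.3% were higher. Without the 3 libraries that stood apart, 3 of the 9 were higher and 6 lower, with a median difference of -0.18. Adrb3, the adrenergic receptor of the adipocyte, was at 5.53 ± 2.68 (SD, n = 8) with vehicle and 6.46 ± 1.27 (SD, n = 7) with BDE-47, with its lowest levels, 1.53 and 1.00, in vehicle mice 6 and 8 (difference 0.92, exact permutation p = 0.424, and -0.13 without the 3 libraries that stood apart, p = 0.771). Thra, a thyroid hormone receptor, and Prkar2b, the regulatory subunit of protein kinase A in fat, differed by -0.08 and 0.35. The lowest Prkar2b levels, 0.69 and 0.51, were again those of vehicle mice 6 and 8. Of the transcription factors, 6 of 12 measured genes were higher and 6 lower, and without the 3 libraries 4 were higher and 8 lower. Nfia, a factor of brown fat identity, differed by 0.39, Cebpb, a factor of adipocyte differentiation, by 0.11, and Esrra, the estrogen-related receptor alpha, by -0.35. For Nfia the lowest levels were 4.29 and 6.35, in vehicle mice 6 and 8.

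Of the genes of fuel supply and mitochondria, 6 of 11 measured genes were higher and 5 lower. Without the 3 libraries that stood apart, 5 were higher and 6 lower, with a median difference of -0.39. Plin5, which ties lipid droplets to mitochondria in oxidative tissue, was above 1 CPM in all 7 BDE-47 mice, at 1.19, 1.35, 1.58, 2.67, 2.90, 3.55 and 3.56. It was at 0.42 and 4.39 in vehicle mice 7 and 4 and listed at 0 in the other 6, so that the highest value belonged to a vehicle mouse while most of the group had none listed. Its difference of 1.80 had a standard error of 0.83 and an unadjusted p of 0.0351 in limma (adjusted p = 0.982), with an exact permutation p of 0.0291 that was not adjusted. It was 1.78 without the 3 libraries that stood apart (exact permutation p = 0.0649). Cpt2, the partner of Cpt1 on the inner membrane, differed by 1.40 (exact permutation p = 0.192), Acadvl, the first enzyme of very long chain fatty acid oxidation, by 0.23 and Lpl, lipoprotein lipase, by 0.44. Lpl was at 6.54 and 7.11 in vehicle mice 6 and 8 and at 9.85 or more in every other mouse. Of the creatine and calcium cycles, which make heat without Ucp1, 5 of 6 measured genes were higher and 1 lower. Over all genes above 1 CPM in at least 1 mouse, 49.3% were higher. The lowest unadjusted p of this list in limma was 0.23. Without the 3 libraries, 5 were higher and 1 lower, with a median difference of 0.34. Atp2a2, the calcium pump of the endoplasmic reticulum, differed by 0.08, Ckb, the brain form of creatine kinase, by -0.32 and Gatm, the first enzyme of creatine synthesis, by 0.21.

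Of the 9 surface and selection markers of beige and brown cells, 5 were higher and 4 lower. Without the 3 libraries that stood apart, 4 of 8 were higher and 4 lower. Cited1, a transcriptional coregulator used as a beige marker, was at 5.32 ± 2.97 (SD, n = 8) and 7.17 ± 1.10 (SD, n = 7), with 1.36 and 0.33 in vehicle mice 6 and 8, and its difference of 1.86 had an unadjusted p of 0.0243 in limma (adjusted p = 0.982) and an exact permutation p of 0.162. It was 0.77 without the 3 libraries (exact permutation p = 0.175). Cited1 is also a gene of the mammary epithelium, whose markers were low in vehicle mice 6 and 8, and the part of this in the difference was not tested. Slc36a2, an amino acid carrier of brown fat, differed by 1.07 (exact permutation p = 0.389) and Kcnk3, a potassium channel, by 0.08. Slc36a2 was at 0.63 and 0.12 in vehicle mice 6 and 8 and at 0.11 in vehicle mouse 2.

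Of the marker lists for other tissues, all 16 skeletal muscle markers and all 7 slow and cardiac ones had a higher mean with BDE-47, and all 8 B cell markers had a lower one, in the presence of the 3 libraries named above. By mean log2(CPM), 11 of the 12 white adipocyte markers were higher and 1 lower, but by mean CPM 3 were higher and 9 lower, and without the 3 libraries 1 was higher and 11 lower by mean log2(CPM). The 8 epithelial markers were all higher by mean log2(CPM), and 7 of the 8 by mean CPM or without the 3 libraries. Without them, 8 of the 16 skeletal muscle markers were higher and 8 lower. None of these genes that entered limma had an unadjusted p under 0.05. The slow, cardiac and B cell markers did not pass its filter. The summed CPM of the adipocyte markers was 608 to 37220 in the vehicle mice, with a median of 25758, and 5782 to 19988 in the BDE-47 mice, with a median of 16735, and its part in the differences of the members was not tested beyond the covariate fit.

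The genes whose levels ran most like a member were named by Pearson's r over the 15 mice, without a test. Each was picked as the highest r among the 9511 genes that passed the limma filter, and such a choice can give a high r by chance. The points are single mice, and they include the 3 libraries that stood apart, so r is given again over the other 12. These 12 are part of the mice used for the choice, so the second r is no separate check. Ucp1 and Cox8b had the same nearest gene, Ppp1r1a, an inhibitor of protein phosphatase 1, with r of 0.755 and 0.887 over 15 mice and 0.793 and 0.883 over 12. For Cox7a1, the nearest 3 genes were Amot (0.844), Uqcrb (0.832), a subunit of the cytochrome bc1 complex, and Cox6b1 (0.83), a general subunit of cytochrome c oxidase. Over 12 mice these were 0.72, 0.854 and 0.869. Cidea ran most like Tenm4 (0.945), Paqr4 (0.93) and mt-Rnr2 (0.905), a ribosomal RNA of the mitochondrion, with 0.897, 0.892 and 0.767 over 12 mice. The nearest genes were Mbd5 (0.913, and 0.965 over 12 mice) for Ppargc1a, Zfp952 (0.885 and 0.878) for Elovl3 and 2610528J11Rik (0.819 and 0.796) for Otop1, members that are listed at 0 in 9 or more mice, where shared zeros enter the value.

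Over the 15 mice, the mean level fell in the order Cidea (4.43), Cox8b (4.10), Cox7a1 (3.10), Ucp1 (1.82), Prdm16 (1.36), Ppargc1a (1.29), Elovl3 (1.25), Otop1 (1.03), Fabp3 (0.88) and Cpt1b (listed at 0). Neighbours in this order differed by less than the spread of their difference between mice. The difference of Cidea and Cox8b averaged 0.33 with an SD of 2.37, and that of Cox8b and Cox7a1 averaged 1.00 with an SD of 1.55. Counted by mouse, Cidea was above Cox8b in 13 and below it in 2. Cox8b was above Cox7a1 in 9 mice and below it in 4. By mean CPM, Cox8b (53.1 CPM) and Cox7a1 (43.9 CPM) came before Cidea (42.1 CPM). The median mouse had 5 members above 1 CPM, with a lowest count of 1 in vehicle mouse 6 and a highest of 8 in vehicle mouse 1.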

How the data were processed

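RNA of the left 4th mammary tissue was measured in 15 mice, 8 vehicle and 7 BDE-47, grouped by the treatment in the sample labels. QuantSeq 3′ FWD libraries were aligned by the authors with STAR 2.5.3a (GRCm38 in the submitters' processing notes) and scaled to CPM. The deposited unit is log2(CPM), and a gene below 1 CPM carries a 0. The log2 step and this floor are not stated and were read from the values, whose steps are whole reads and gave the depth of each mouse. Each mouse has 52636 entries. Where a gene name occurred more than once, the entry with the highest mean was kept, which removed 110.

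The members and all gene lists were chosen with earlier results of these data known. Named genes were all members, the 3 most abundant genes of each list, any gene of a list with an unadjusted p under 0.05, well-measured paralogs of the members, and genes among the 3 with the highest r to each member, of which 1 result is not reported here. Elovl5 and the other paralogs follow this rule, and the co-occurrence of Ucp1 and Cidea was noticed in the values. Of the 18 paralog names listed, 17 were found, and the other, Prdm3, is another name of Mecom, which was among them. The log2(CPM) values of 9511 genes that reached 1 CPM in 7 or more mice were compared in R 4.3.3 with limma 3.58.1, using eBayes with a variance trend, with Benjamini-Hochberg adjustment over all of them, and with the exact permutation test, two-sided. Genes past 2-fold were counted from group means without a test. Methods that need counts were not used. On simulated data for this comparison, with 9511 genes, limma found 1% of 200 genes changed by 1 log2 unit, 12.5% at 2, 52.5% at 3 and 94% at 5. Promoters and positions are from RefSeq, GRCm38.p6. Replicate numbers were not taken to pair the mice. The xenograft covariate of the study was not used, because it is not given for each mouse. Alternatives were log2(CPM + 1), log2(CPM + 0.1), size factors, the ratio of mean CPM, other filters, a replicate block, a muscle covariate and mice left out. The adipocyte covariate, the removal of 3 mice together and the direction of the lists by mean CPM were added after seeing the data. Python 3.11.15 with scipy 1.17.1, pandas 2.3.3 and matplotlib 3.10.9 served for the rest.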

Additional observations from a re-analysis of the deposited data

Results flagged for a closer look

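In 28 sets of mice of 1 group, the highest and lowest values were compared with the rest of the group by the size of the gap, a check that marks about 1 in 20 sets by chance, and 6 values were marked. Of the members, Fabp3 in BDE-47 mouse 6, at a log2(CPM) of 8.3, was marked, since the other 6 BDE-47 mice were listed at 0. The same mouse was marked for the mean log2(CPM) of the skeletal muscle markers, at 12.22 against 2.72 in the next mouse, of the slow and cardiac muscle markers, at 8.53 against 0.49, and of the mammary epithelial markers, where its 3.82 was the lowest against 6.52. Vehicle mouse 1 was marked for the skeletal muscle markers, at 3.72 against 2.37. BDE-47 mouse 3 was marked for the B cell markers, at 0.16, because the other 6 mice of its group were at 0.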

How the results depend on the processing

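The counts of members past an adjusted and past an unadjusted p of 0.05 in limma were 0 under each of the alternatives run, and the 216 alternative values of single members had no p under 0.05, the lowest being 0.168. Signs were less steady, and 48 of the 216 were opposite to the value reported. With the ratio of mean CPM the difference was -0.31 for Cidea and -0.62 for Otop1, with log2(CPM + 0.1) it was -0.52 for Cox7a1, and with size factors it was -0.03 for Otop1. Without vehicle mice 6 and 8 it was -0.88 for Cidea, -0.21 for Cox7a1, -0.22 for Cox8b and -0.34 for Otop1. Without these and BDE-47 mouse 6 it was -0.71 for Cidea, -1.17 for Cox7a1, -0.95 for Cox8b, -0.16 for Otop1 and -0.29 for Fabp3. With the muscle marker score as a covariate it was -0.83 for Cox7a1, -0.43 for Cox8b and -0.49 for Fabp3, and with the adipocyte score it was -0.12 for Cidea, -0.02 for Cox7a1 and -0.15 for Otop1. Apart from the settings that leave out mice, the cause was not tested. Leaving out each mouse in turn gave -0.80 to 0.32 for Ucp1, -0.19 to 0.85 for Cidea, 0.27 to 1.35 for Ppargc1a, -0.74 to -0.01 for Prdm16, -0.87 to 0.23 for Elovl3, -0.88 to 0.60 for Cox7a1, -0.48 to 0.79 for Cox8b, -0.37 to 0.54 for Otop1 and -0.60 to 0.93 for Fabp3. The count past 2-fold, 0 as reported, was 2 with log2(CPM + 0.1) (Ppargc1a and Cox8b), 4 with the ratio of mean CPM (Elovl3, Cox7a1, Cox8b and Fabp3), 1 without the 3 mice, and 0 to 1 with single mice left out. The deposited floor limits what can be seen of low genes: 51.3% of the members' values are listed at 0.

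The labels do not say that a replicate number marks a shared source, and the numbers were not taken to pair the mice. Over 7 pairs of equal number, the correlation of the deviations was -0.018 to 0.053. Each of the 7 BDE-47 mice was also compared with all 8 vehicle mice. For 4 of the 7, the highest correlation was with the vehicle mouse of the same number, a count that was not tested. The fit with the replicate number as a block left out vehicle mouse 8, which has no BDE-47 mouse of its number. In that fit limma called 0 members, the difference was -0.19 for Cidea and -0.14 for Otop1, and it kept its sign for the other 7 members with a value. Leaving out vehicle mouse 8 without a block gave the same differences, -0.19 for Cidea and -0.14 for Otop1.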
